A study of Mus musculus with 11 samples.

Results

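Glycolysis carries glucose to pyruvate, and pyruvate then leaves as lactate or enters the mitochondria through the pyruvate dehydrogenase complex. The 32 genes described here are listed by their known role along this route, from glucose import to pyruvate entry. The list uses no measured value as a rule, but it was drawn up with earlier results of these data known, so the counts below are descriptive. All 32 were found among the 35084 gene symbols of the deposited data and all 32 passed the filter on low counts. They were measured by bulk RNA sequencing in KP1 cells, an *Rb/p53* mutant mouse small-cell lung cancer (SCLC) line grown in suspension culture. The control group was 2 libraries of untreated KP1 cells (replicates 2 and 3), and the irradiated group was 3 libraries of KP1 cells collected 24 h after a dose of 5 Gy (replicates 1, 2 and 3). Both groups were the same line in the same RPMI-1640 medium with serum, so a single cell line stands for SCLC here, and nothing in the sources used here says whether the libraries of a group came from separately handled cultures. The p values then measure the spread between these libraries, which may be technical.

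Each glycolytic step is run by 1 enzyme or by a small family of alternative enzymes from different genes, and cancers often use a different mix of these than the normal tissue does. The upper stretch, from the glucose transporters to phosphofructokinase, spends ATP, and the lower stretch, from aldolase to pyruvate kinase, returns it. Lactate dehydrogenase turns pyruvate into lactate and regenerates the NAD+ that glycolysis needs, while the pyruvate dehydrogenase kinases hold pyruvate back from the mitochondria. Many of these genes are textbook targets of hypoxia-inducible factor and of MYC.

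Levels are given as TPM, an abundance per transcript length that Salmon scales to the same total in each library, and only TPM is compared between genes. Differences were tested on the estimated reads per gene with edgeR's quasi-likelihood test, and the adjusted p is the Benjamini-Hochberg value over the 14099 genes tested. The libraries held 21185956 to 31036317 estimated reads. Reads of the control libraries came from longer transcripts, with a read-weighted mean length of 5463 and 4729 bases, than those of the irradiated libraries, at 3715, 3625 and 3998 bases. Across all genes tested the change after irradiation ran with length, as shown further on, so the main counts are also given from a fit with an offset that removes the trend with transcript length in each library. The neuroendocrine markers *Chga* and *Insm1* were present in all 5 libraries, at 278 to 475 TPM and 263 to 502 TPM. Of the neuroendocrine markers 3 were called higher, *Uchl1* (log2 fold change 1.14), *Syp* (0.64) and *Calca* (1.18), and *Ncam1* was lower (−1.20), and none of these 4 was called with the length offset. Of 6 immune markers *Csf1r*, *Adgre1* and *Cd3e* had no read in either control library and at most 2 in an irradiated library. The other 3 had 0 to 51 reads in a control library and 0 to 24 reads in an irradiated library. The list summed to 4.55 and 6.89 TPM in control and 1.21 to 1.62 TPM in irradiated cells. The 5 fibroblast and endothelial markers summed to 14.9 and 1.12 TPM in control replicates 2 and 3 and to 0.451 to 0.652 TPM in irradiated cells. Of the sum in control replicate 2, 1 marker held 13.5 TPM from 33 reads. In such bulk libraries fewer contaminating cells and less RNA per cell cannot be told apart, and the part of these markers in the results was not tested.

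After irradiation 16 of the 32 genes (50%) were higher at an adjusted p under 0.05, against 12.7% of all genes tested, and 1 of the 32 was lower, against 13% of all genes. The genes called higher were *Slc2a1*, *Gpi1*, *Pfkl*, *Aldoa*, *Aldoc*, *Tpi1*, *Gapdh*, *Pgk1*, *Pgam1*, *Eno1*, *Pkm*, *Ldha*, *Slc16a3*, *Pdk1*, *Pdk2* and *Pdhb*, and the gene called lower was *Pfkfb2*. The median log2 fold change of the 32 genes was 0.67, and that of all genes tested was 0.02. The estimate was above 0 for 29 of the 32 genes, against 51.1% of all genes. The normalized read counts of the groups did not overlap for 24 genes, with the irradiated libraries higher in 23 (background 30.1%) and lower in 1 (background 29.3%). At the thresholds used by the study, a log2 fold change above 1.5 or below −1.5 with an adjusted p under 0.05, 1 gene was called, *Aldoc*, against 1.66% of all genes called higher, and none fell, against 1.89%. The count of 16 dropped to 7 without control replicate 2, where 0.657% of all genes were higher, and to 10 without irradiated replicate 1, where 6.08% were. With the length offset 13 of the 32 genes were higher, against 4.42% of all genes, and 12 of these were among the 16.

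Along the route the calls fell as follows. Of the 10 genes from aldolase to pyruvate kinase 8 were called higher and none lower, with a median log2 fold change of 0.96. Of the 11 genes above them, from glucose entry to the PFKFB enzymes, 3 were higher and 1 lower, with a median of 0.39. Of the 4 genes for making and exporting lactate 2 were higher, and of the 7 genes that control or form the entry of pyruvate into the mitochondria 3 were higher. With the length offset the counts of genes called higher were 6 of 10, 3 of 11, 3 of 4 and 1 of 7 in the same order. The difference between these stretches was not tested. All 6 glycolytic steps with a single gene on the list (*Gpi1*, *Tpi1*, *Gapdh*, *Pgk1*, *Pgam1* and *Pkm*) were called higher. In the 9 steps or kinase families with alternative genes, the gene with the highest TPM in control cells was called higher in 7. Of the 13 other genes 2 were called higher (*Aldoc* and *Pdk2*) and 1 lower (*Pfkfb2*). Among the uncalled, *Pfkm* (log2 fold change 1.00), *Eno3* (0.74), *Ldhb* (0.68) and *Eno2* (0.66) had estimates near or above that of the called *Pfkl* (0.67). They had only 29 to 222 reads in a library. The other uncalled genes of the 13 had smaller estimates, and the part of read depth in these calls was not tested.

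**Figure D1:**
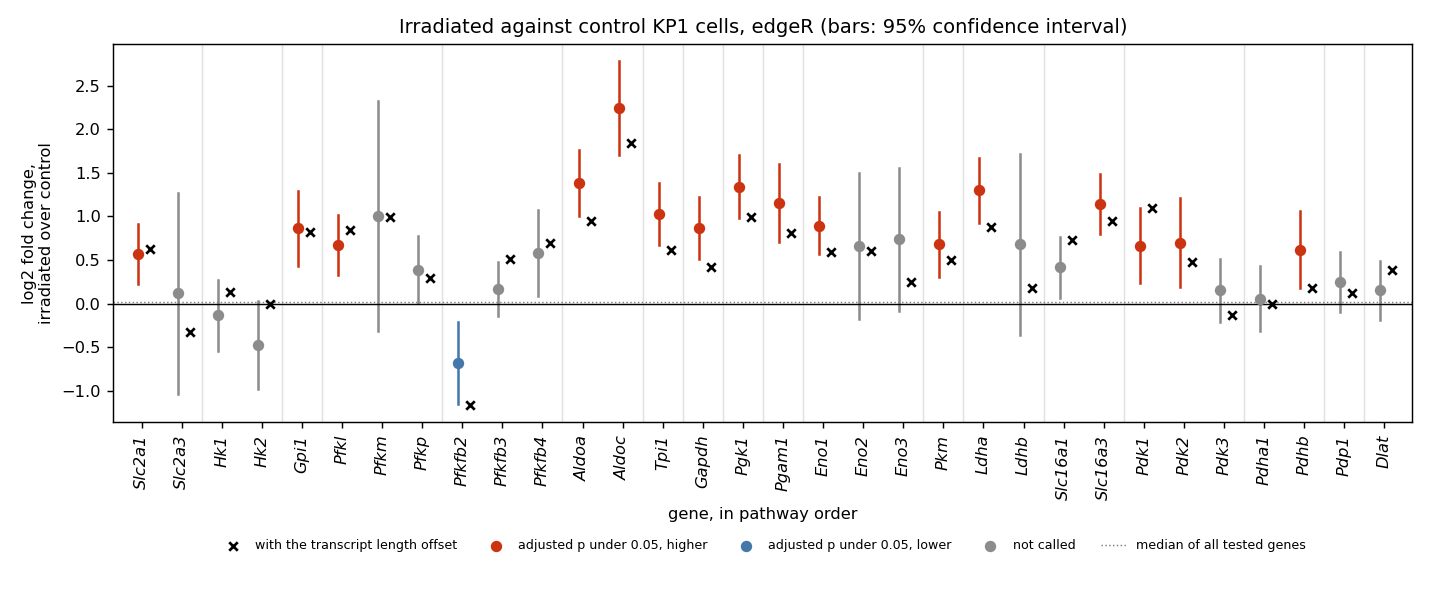
Log2 fold change of each gene, irradiated over control, in pathway order from glucose import on the left to pyruvate dehydrogenase on the right. Points and bars are the edgeR estimate and its 95% confidence interval, coloured by call, and crosses are the estimate with the transcript length offset. *Aldoc* stands highest at 2.24 and *Pfkfb2* lowest at −0.68, and the run of red points from *Aldoa* to *Eno1* lies closer to 0 with the offset but stays above it.

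In TPM the 32 genes together made up 8161 and 8596 TPM in the control libraries and 13361, 11704 and 13025 TPM in the irradiated libraries. The groups did not overlap, at 8379 ± 308 TPM (SD, n = 2) and 12697 ± 876 TPM (SD, n = 3), a ratio of 1.52. From reads scaled by library size alone, the same ratio was 1.95. Most of the sum came from aldolase to pyruvate kinase, which held 5829 and 6109 TPM in control and 9596, 8475 and 9407 TPM in irradiated cells. On the TPM scale 12 of the 32 genes were higher in every irradiated library than in both controls, against 15.4% of all genes, and 5 were lower (*Hk2*, *Pfkfb2*, *Pfkfb3*, *Pdk3* and *Dlat*), against 42.7% of all genes. Of the 16 genes called higher on reads, 5 had TPM values that overlapped between the groups (*Gpi1*, *Pfkl*, *Slc16a3*, *Pdk2* and *Pdhb*).

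**Figure D2:**
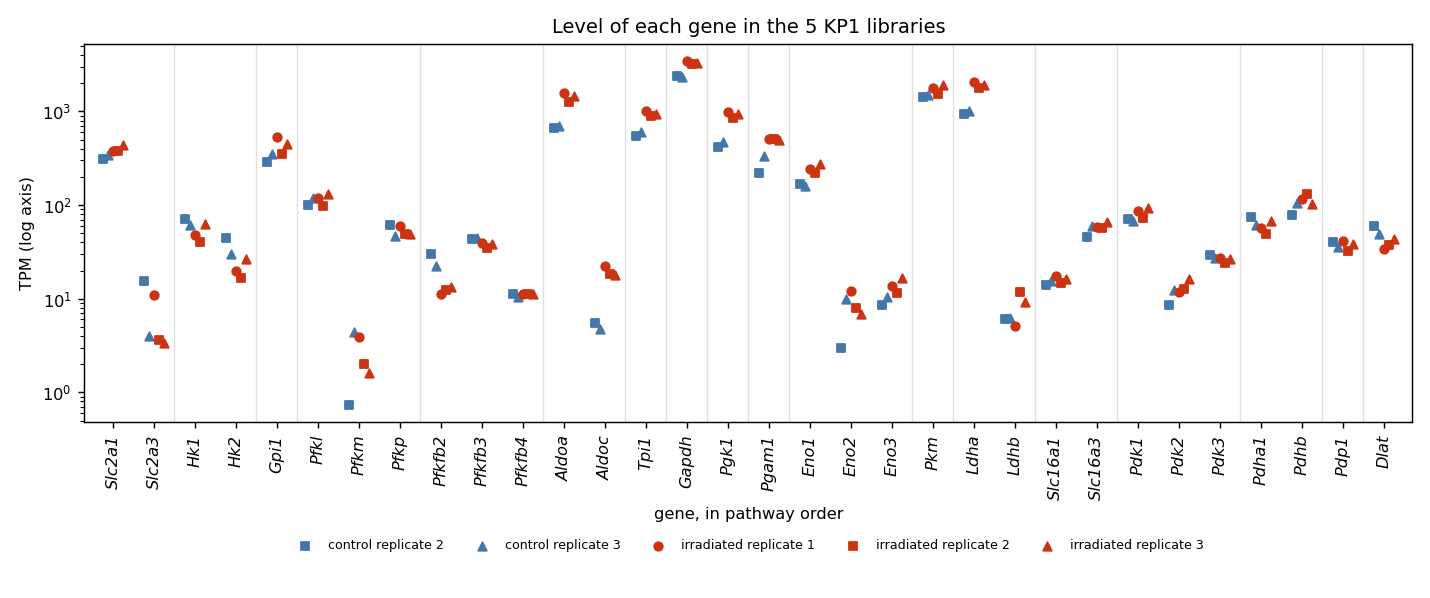
Level of each of the 32 genes in TPM (log axis) in the 2 control and 3 irradiated libraries, in pathway order. *Gapdh* is the highest in every library, at 2332 to 3441 TPM, and *Pfkm*, at 0.735 to 4.41 TPM, holds the lowest value of all.

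The levels spanned a wide range. *Gapdh* was the most abundant, at rank 27 of all genes by mean control TPM, and *Pkm* followed at rank 68. In every library *Gapdh* lay above *Pkm*. *Pkm* and *Ldha* were apart in control cells, at 1411 and 1491 against 927 and 1015 TPM, and overlapped in irradiated cells, at 1539 to 1925 against 1791 to 2074 TPM. *Pgam1*, *Gpi1* and *Slc2a1* also overlapped in control cells, between 222 and 351 TPM. *Pgam1* was the lowest of these in both control libraries, while *Gpi1* and *Slc2a1* changed order between the controls.

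Glucose enters through the GLUT transporters. *Slc2a1*, which encodes the widely expressed GLUT1, was at 310 and 340 TPM in control and at 382, 377 and 442 TPM in irradiated cells. All 3 irradiated libraries lay above both controls, and the log2 fold change was 0.57 ± 0.15 (SE; adjusted p = 0.0291, edgeR). The call was kept in 9 of 17 alternative settings, and was lost with the GC offset and on leaving out any 1 library except control replicate 3. *Slc2a3*, the high-affinity neuronal transporter GLUT3, was at 15.6 and 3.98 TPM in control and at 11, 3.66 and 3.39 TPM in irradiated cells. The groups overlapped, with 1 high library on each side (log2 fold change 0.12 ± 0.50, adjusted p = 0.883), and *Slc2a1* made up 95.2% to 99.2% of the TPM of the pair in each library.

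Hexokinase traps glucose in the cell as glucose 6-phosphate. The constitutive *Hk1* was at 70.1 and 61.7 TPM in control and 47.8, 40.7 and 62.2 TPM in irradiated cells, with a log2 fold change of −0.14 ± 0.18 on reads (adjusted p = 0.606). *Hk2*, the inducible hexokinase of muscle and of many tumours, was at 44.2 and 29.7 TPM in control and 19.5, 16.6 and 26.5 TPM in irradiated cells. On the TPM scale every irradiated library of *Hk2* lay below both controls, whereas on normalized reads the groups overlapped (log2 fold change −0.48 ± 0.22, adjusted p = 0.139). The main transcript of *Hk2* is 5513 bases, the longest of the 32, and its estimate with the length offset was 0.00. *Hk2* made up 38.6% and 32.5% of hexokinase TPM in control and 29.0%, 29.0% and 29.9% in irradiated cells, which did not overlap (exact permutation test, two-sided p = 0.1, the smallest that 2 against 3 libraries allow). *Hk2* and *Slc2a3* are both well-known hypoxia-responsive genes. Neither was called, and the 95% interval of *Slc2a3* was wide, from −1.03 to 1.27. The part of hypoxia-inducible factor in the changes of any of the 32 genes was not tested.

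*Gpi1*, which converts glucose 6-phosphate to fructose 6-phosphate, was at 287 and 351 TPM in control and 531, 348 and 452 TPM in irradiated cells. Irradiated replicate 2 lay just under control replicate 3 in TPM, while on reads the groups were apart with a log2 fold change of 0.86 ± 0.19 (adjusted p = 0.0157). Transcripts annotated as protein-coding held 50.3% to 58.7% of its TPM over the 5 libraries, and much of the rest lay on transcripts of the nonsense-mediated decay class.

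Phosphofructokinase commits the sugar to glycolysis. *Pfkl*, the liver-type subunit, led this family with 61.6% to 72.3% of its TPM in each library. It rose on reads (log2 fold change 0.67 ± 0.15, adjusted p = 0.0169), from a CPM (reads scaled to the size of each library) of 131 and 155 in control to 230, 221 and 233 in irradiated cells. In TPM it stood at 101 and 119 in control and 119, 98.5 and 132 in irradiated cells, which overlapped. The call was kept in 9 of 17 alternative settings, and was lost with the effective length and GC offsets and without control replicate 2, irradiated replicate 1 or irradiated replicate 2. Part of the control TPM of *Pfkl* lay on a 583-base transcript, which held 20.4% and 22.3% of it in control and 11.6%, 0% and 13.3% in irradiated cells. The platelet-type *Pfkp* was at 46.3 to 62.0 TPM over the 5 libraries (log2 fold change 0.39 ± 0.17, adjusted p = 0.116). The muscle-type *Pfkm* was at 0.735 to 4.41 TPM, with a log2 fold change of 1.00 whose 95% interval ran from −0.32 to 2.32.

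The bifunctional PFKFB enzymes set the level of fructose 2,6-bisphosphate, the main activator of phosphofructokinase. *Pfkfb2*, the heart-type enzyme, at chr1:130689182-130729253 (mm10), was at 29.8 and 22.5 TPM in control and 11.3, 12.5 and 13.4 TPM in irradiated cells. Every irradiated library lay below both controls, and *Pfkfb2* fell by 0.68 on the log2 scale (SE 0.21, adjusted p = 0.0434), the one fall among the 32 genes. It was called in 10 of 17 alternative settings but lost its call on leaving out any 1 of the 5 libraries, and its log2 fold change ran from −1.16 to −0.55 across them. The largest part of its TPM, 40.6% to 49.2%, lay on a 768-base transcript of the nonsense-mediated decay class, while its 2849-base protein-coding transcript went from 5.33 and 5.98 TPM to 2.03, 2.64 and 2.59 TPM.

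*Pfkfb3* and *Pfkfb4*, the isoenzymes most often tied to hypoxia and tumours, were not called. *Pfkfb3* was at 43.0 and 44.5 TPM in control and 39.0, 34.9 and 38.6 TPM in irradiated cells (log2 fold change on reads 0.17 ± 0.14, adjusted p = 0.379). Its TPM was lower in every irradiated library, while its CPM was higher, at 82.1 and 84.0 in control and 90.8 to 96.2 in irradiated cells. *Pfkfb4* was at 10.4 to 11.2 TPM over the 5 libraries (log2 fold change on reads 0.58 ± 0.22, adjusted p = 0.0802). Within the family the share of *Pfkfb2* went from 35.5% and 29.0% in control to 18.4%, 21.4% and 21.2% in irradiated cells, and the shares of *Pfkfb3* and *Pfkfb4* were both higher in every irradiated library (exact permutation test, two-sided p = 0.1, the smallest possible, for each of the 3).

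**Figure D3:**
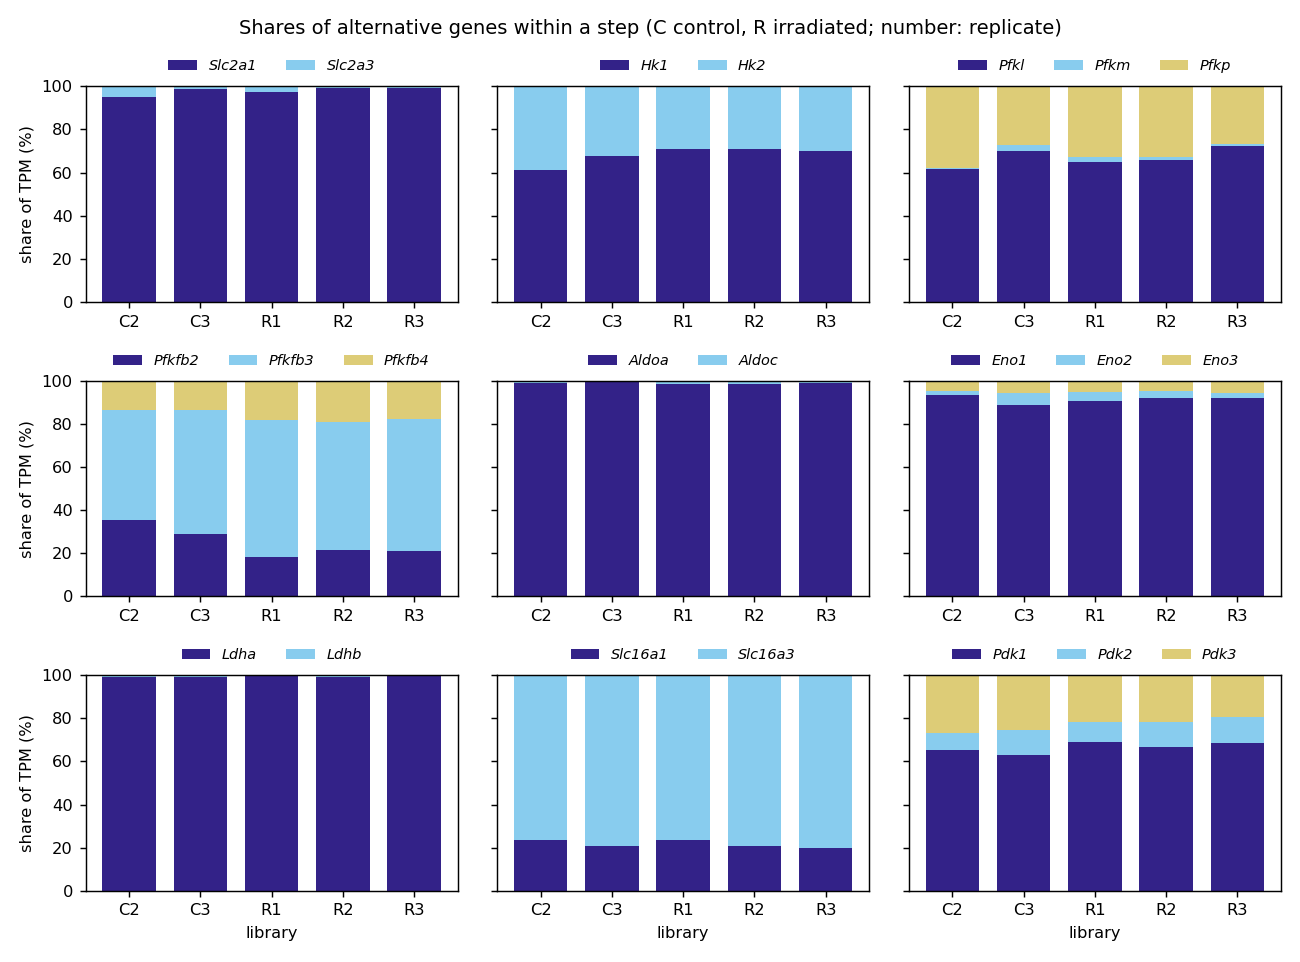
Share of TPM held by each alternative gene in the 9 steps or kinase families with more than 1 gene, for each library (C control, R irradiated, with the replicate number). The shares of *Pfkfb2* (32.3% to 20.3% on average) and *Hk2* (35.6% to 29.3%) are smaller in irradiated cells, and *Slc2a1*, *Aldoa*, *Eno1* and *Ldha* fill most of their bars in every library.

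Aldolase splits fructose 1,6-bisphosphate, and both of its genes on the list rose. *Aldoa*, the muscle-type and most widely expressed aldolase (chr7:126795234-126800751, mm10), was at 664 and 694 TPM in control and 1561, 1250 and 1465 TPM in irradiated cells. *Aldoc*, the brain-type aldolase (chr11:78322968-78327781, mm10), was at 5.53 and 4.70 TPM in control and 22.4, 18.3 and 18.0 TPM in irradiated cells. In both genes the lowest irradiated library lay far above the highest control. The fold was 2.61 for *Aldoa* (log2 fold change 1.38 ± 0.16, adjusted p = 0.00814) and 4.73 for *Aldoc* (log2 fold change 2.24 ± 0.24, adjusted p = 0.00814). *Aldoc* was called in all 17 alternative settings and *Aldoa* in 16. Even so *Aldoc* remained a minor form, at 0.83% and 0.67% of aldolase TPM in control and 1.42%, 1.44% and 1.21% in irradiated cells. The symbol *Aldoa* covers a pair of adjacent gene identifiers in the annotation, whose reads were summed.

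*Tpi1*, which interconverts the triose phosphates, went from 543 and 601 TPM to 1017, 893 and 944 TPM (log2 fold change 1.03 ± 0.16, adjusted p = 0.00896). *Gapdh*, which makes 1,3-bisphosphoglycerate and is often used as a reference gene in RNA measurements, went from 2392 and 2332 TPM to 3441, 3189 and 3318 TPM (log2 fold change 0.87 ± 0.16, adjusted p = 0.00999). For both genes every irradiated library lay above both controls. *Gapdh* lost its call with the length offset (log2 fold change 0.42), and 73 near-identical copies in the annotation took 0.41% to 0.70% of the reads of *Gapdh* and copies together.

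*Pgk1*, the first ATP-yielding enzyme of the pathway (chrX:106187100-106203699, mm10), was at 414 and 472 TPM in control and 979, 843 and 941 TPM in irradiated cells. The groups were far apart, with a fold of 2.54 (log2 fold change 1.34 ± 0.16, adjusted p = 0.00814). *Pgam1*, the phosphoglycerate mutase of most tissues, was at 222 and 334 TPM in control and 513, 508 and 496 TPM in irradiated cells. The controls of *Pgam1* differed from each other more than the irradiated libraries did, and all 3 irradiated libraries lay above them (log2 fold change 1.15 ± 0.20, adjusted p = 0.00942). It lost its call without control replicate 2. Identical or near-identical pseudogenes took 3.90% to 7.93% of the reads of *Pgam1* and its copy together, and 0% to 4.54% of those of *Pgk1* and its copies.

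Enolase makes phosphoenolpyruvate. *Eno1*, the ubiquitous form, was at 167 and 160 TPM in control and 245, 217 and 277 TPM in irradiated cells (log2 fold change 0.89 ± 0.14, adjusted p = 0.00902). A near-identical protein-coding gene, *Eno1b*, matched *Eno1* at 99.5% identity and took 1956 and 1832 reads in control and 3671, 3169 and 4278 reads in irradiated cells. Copies held 31.7% to 36.9% of the reads of *Eno1* and its copies together, so the division between them is uncertain, and both were higher in every irradiated library. *Eno2*, the neuron-specific enolase that serves as a clinical marker of SCLC, was at 3.01 and 9.87 TPM in control and 12.2, 7.93 and 6.93 TPM in irradiated cells. The groups overlapped (log2 fold change 0.66 ± 0.37, adjusted p = 0.207), and *Eno2* made up 1.69% to 5.46% of enolase TPM in this neuroendocrine line. The muscle-type *Eno3* was at 8.53 and 10.5 TPM in control and 13.6, 11.4 and 16.7 TPM in irradiated cells (log2 fold change 0.74 ± 0.36, adjusted p = 0.158).

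Pyruvate kinase makes pyruvate. *Pkm* (chr9:59656368-59679375, mm10) was at 1411 and 1491 TPM in control and 1791, 1539 and 1925 TPM in irradiated cells, with every irradiated library above both controls. The log2 fold change was 0.68 ± 0.16 (adjusted p = 0.0208), and the call was kept in 8 of 17 alternative settings. The transcripts of *Pkm* carry 1 of a pair of mutually exclusive coding exons, which give the M1 enzyme of muscle and brain or the M2 enzyme of proliferating cells and tumours. Both exons are 167 bases long and differ at 64 positions. They are shown because the M1 and M2 levels rest on them, on the + strand of mm10 at chr9:59675029-59675195 (M1) and chr9:59675568-59675734 (M2), with the differing bases in capitals, read from the GENCODE M21 transcripts:
Pkm M1 exon: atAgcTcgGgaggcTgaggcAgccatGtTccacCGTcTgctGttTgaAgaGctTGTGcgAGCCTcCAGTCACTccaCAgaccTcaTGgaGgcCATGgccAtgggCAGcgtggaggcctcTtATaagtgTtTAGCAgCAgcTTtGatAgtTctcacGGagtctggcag
Pkm M2 exon: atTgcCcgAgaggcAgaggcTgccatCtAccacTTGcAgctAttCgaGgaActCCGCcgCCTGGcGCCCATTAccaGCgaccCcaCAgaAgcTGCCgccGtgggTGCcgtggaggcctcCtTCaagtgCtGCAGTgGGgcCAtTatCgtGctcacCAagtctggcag
Transcripts with the M2 exon held 789 and 955 TPM in control and 1182, 1123 and 1371 TPM in irradiated cells, and every irradiated library was higher than both controls. Transcripts with the M1 exon held 411 and 427 TPM in control and 575, 383 and 516 TPM in irradiated cells, which overlapped. The share of M1 in the sum of M1 and M2 was 32.6% ± 2.37 (SD, n = 2) in control and 28.5% ± 3.77 (SD, n = 3) in irradiated cells. The libraries overlapped, at 30.9% and 34.3% against 25.4% to 32.7%. M2 was thus the main form in each of the 5 libraries. Of all *Pkm* TPM the M2 transcript held 55.9% and 64.1% in control and 66.0%, 73.0% and 71.2% in irradiated cells. Transcripts counted as neither form held a larger part of *Pkm* TPM in both controls than in any irradiated library. Their part in the rise of M2 was not tested. The annotated M1 and M2 transcripts also differ at their ends, so the split does not rest on these exons alone.

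Lactate dehydrogenase was nearly all *Ldha*, the muscle-type subunit that favours lactate formation (chr7:46841475-46855627, mm10). *Ldha* was at 927 and 1015 TPM in control and 2074, 1791 and 1907 TPM in irradiated cells. The groups were far apart, with a fold of 2.46 (log2 fold change 1.30 ± 0.16, adjusted p = 0.00814). *Ldhb*, the heart-type subunit, was at 6.04 and 6.30 TPM in control and 5.13, 11.7 and 9.12 TPM in irradiated cells, and it overlapped (log2 fold change 0.68 ± 0.46, adjusted p = 0.293). *Ldha* held 99.4% to 99.8% of the TPM of the pair in every library.

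Lactate leaves the cell through the monocarboxylate transporters. *Slc16a3*, the exporter MCT4 of glycolytic cells (chr11:120948480-120960868, mm10), was at a CPM of 29.7 and 27.1 in control and 58.8, 66.2 and 63.3 in irradiated cells. The groups were far apart on this scale, with a fold of 2.21 (log2 fold change 1.14 ± 0.15, adjusted p = 0.00814). In TPM *Slc16a3* was at 46.1 and 59.2 in control and 57.6, 56.7 and 66.3 in irradiated cells, and the groups overlapped. Short transcripts with few reads held some of the control TPM, and their part in the gap between the scales was not tested. A 395-base transcript annotated as processed was given 16.8 and 10.3 TPM in control from 31 and 17 reads, and 0, 0 and 0.994 TPM in irradiated cells from 0, 0 and 2 reads. The 2386-base coding transcript went from 9.17 and 6.82 TPM, or 303 and 204 reads, to 20.4, 19.7 and 23.2 TPM, or 710, 630 and 841 reads. *Slc16a1*, the more general transporter MCT1, was at 14.0 and 15.6 TPM in control and 17.6, 14.7 and 16.4 TPM in irradiated cells (log2 fold change on reads 0.42 ± 0.15, adjusted p = 0.0751). Its main transcript is 4426 bases, and it was called higher with the length offset (log2 fold change 0.73).

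Pyruvate dehydrogenase kinases switch the complex off. *Pdk1*, a textbook hypoxia target, was at 71.3 and 68.3 TPM in control and 87.0, 72.8 and 92.5 TPM in irradiated cells, with every irradiated library above both controls (log2 fold change 0.66 ± 0.19, adjusted p = 0.0364). *Pdk2*, the most widely expressed kinase, was at 8.50 and 12.5 TPM in control and 11.8, 12.6 and 16.2 TPM in irradiated cells (log2 fold change on reads 0.70 ± 0.22, adjusted p = 0.0491). *Pdk3* was at 29.1 and 27.5 TPM in control and 27.4, 23.8 and 26.3 TPM in irradiated cells (log2 fold change on reads 0.15 ± 0.16, adjusted p = 0.501). The call of *Pdk1* held in 10 of 17 alternative settings and that of *Pdk2* in 5. The share of *Pdk1* in the 3 kinases was higher in every irradiated library, at 68.0% ± 1.19 (SD, n = 3) against 64.3% ± 1.68 (SD, n = 2), and that of *Pdk3* was lower, at 21% ± 1.30 against 26.0% ± 0.969 (exact permutation test, two-sided p = 0.1, the smallest possible, for each).

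Of the subunits of the complex itself 1 of 3 was called. *Pdha1*, the catalytic E1 alpha subunit that the kinases phosphorylate, was at 74.6 and 60.8 TPM in control and 57.4, 49.7 and 68.2 TPM in irradiated cells (log2 fold change on reads 0.06 ± 0.16, 95% interval −0.32 to 0.43). *Pdhb*, its E1 beta partner, was at 78.6 and 104 TPM in control and 117, 132 and 102 TPM in irradiated cells, and rose on reads (log2 fold change 0.62 ± 0.19, adjusted p = 0.0474), a call that was lost with the length offset. *Dlat*, the E2 subunit, had a log2 fold change on reads of 0.15 ± 0.15 (95% interval −0.19 to 0.49), and *Pdp1*, the phosphatase that reactivates the complex, had 0.25 ± 0.15 (95% interval −0.09 to 0.59). The summed TPM of these 7 genes was 363 and 357 in control and 376, 360 and 388 in irradiated cells, and the groups overlapped.

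Across all genes tested the change ran with transcript length, and among the 32 genes it did so only in part. The shortest main transcripts, of *Slc2a3* (601 bases) and *Pfkfb2* (768 bases), belonged to genes not called higher, while *Pdk1* (5185 bases) was called higher. The main transcript is the highest in TPM, and most reads of *Slc2a3* and *Pfkfb2* lay on other transcripts. For *Slc2a3* it held 50 and 8 reads in control, against 141 and 101 on a 3959-base transcript. For *Pfkfb2* it held 95 and 63 of 626 and 605 reads in control. The deciles and the length offset thus treat both genes as short. The median log2 fold change of all genes tested was 0.18 in the shortest decile by length (65 to 768 bases). From there it ran from 0.67 in the second decile (768 to 1307 bases) to −0.79 in the longest decile. The 16 genes called higher had a median main transcript of 1929 bases, the 16 others 2822 bases, and all genes tested 2697 bases. With the length offset the median log2 fold change of the 32 genes was 0.55, that of all genes tested was 0.04, and 27 of the 32 were above 0, against 53.5% of all genes. The calls of *Gapdh*, *Pkm*, *Pdk2* and *Pdhb* were lost and that of *Slc16a1* was gained. On log2(TPM + 1), a scale chosen after the data were seen, the median of all genes tested was −0.24 and that of the 32 genes 0.26, and limma called 7 higher (*Aldoa*, *Aldoc*, *Tpi1*, *Pgk1*, *Pgam1*, *Eno1* and *Ldha*), against 4.98% of all genes.

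**Figure D4:**
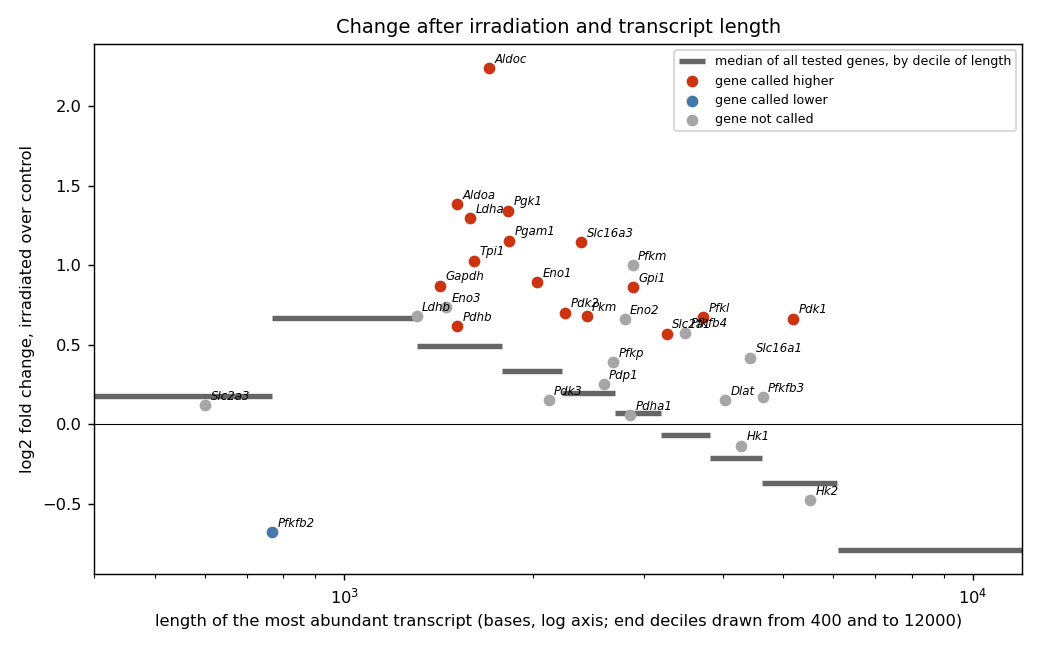
Log2 fold change of each gene on reads against the length of its most abundant transcript (log axis), coloured by call, with grey bars for the median of all genes tested in each decile of length. The bar of the shortest decile is at 0.18, and the others fall from 0.67 in the second decile to −0.79 in the last. The main transcripts of the genes called higher run from 1420 (*Gapdh*) to 5185 bases (*Pdk1*).

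The promoters of these genes were searched for the core of the hypoxia response element, ACGTG or GCGTG on either strand, in the 250 bases before the RefSeq start (GRCm38.p6). ACGTG is also part of the E-box CACGTG that MYC and USF proteins bind, and a CACGTG counts as 2 matches, 1 on each strand. For each gene the 1 window nearest the start of its most abundant coding transcript was taken. Windows were at hand for 30 of the 32 genes, and 25 of these (83.3%) held at least 1 match. Over all windows, where a gene can have more than 1, a match was in 38.6% of 32851 windows and in 54.5% of those of genes tested. The first share is per gene and the others are per window, so they are not like for like. A match was found in 13 of the 16 genes called higher and in 12 of the 14 others with a window. The windows of the 4 genes with the largest log2 fold changes are shown in the direction of the gene with the matched bases in capitals, at chr11:78323948-78324197 (*Aldoc*, + strand), chr7:126799255-126799504 (*Aldoa*, − strand), chrX:106186850-106187099 (*Pgk1*, + strand) and chr7:46845554-46845803 (*Ldha*, + strand):
Aldoc promoter: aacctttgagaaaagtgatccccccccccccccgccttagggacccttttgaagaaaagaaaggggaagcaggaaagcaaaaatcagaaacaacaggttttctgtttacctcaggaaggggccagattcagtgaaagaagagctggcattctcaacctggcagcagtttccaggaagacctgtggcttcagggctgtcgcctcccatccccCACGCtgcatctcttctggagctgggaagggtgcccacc
Aldoa promoter: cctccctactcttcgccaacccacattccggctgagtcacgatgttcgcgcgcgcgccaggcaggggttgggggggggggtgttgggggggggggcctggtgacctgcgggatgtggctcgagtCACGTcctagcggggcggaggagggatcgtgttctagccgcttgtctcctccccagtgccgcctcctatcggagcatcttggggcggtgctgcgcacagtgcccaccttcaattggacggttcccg
Pgk1 promoter: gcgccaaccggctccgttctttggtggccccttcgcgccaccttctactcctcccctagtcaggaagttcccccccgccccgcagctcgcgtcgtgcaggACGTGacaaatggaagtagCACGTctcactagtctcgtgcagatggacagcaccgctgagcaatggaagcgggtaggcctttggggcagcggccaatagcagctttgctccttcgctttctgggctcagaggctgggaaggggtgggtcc
Ldha promoter: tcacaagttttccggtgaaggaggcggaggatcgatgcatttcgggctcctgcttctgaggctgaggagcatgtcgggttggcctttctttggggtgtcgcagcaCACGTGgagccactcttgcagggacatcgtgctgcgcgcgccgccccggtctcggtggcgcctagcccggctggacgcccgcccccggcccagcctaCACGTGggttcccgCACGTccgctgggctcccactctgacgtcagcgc
*Aldoc* and *Aldoa* held 1 match each, *Pgk1* 2 and *Ldha* 5, the last from 2 copies of CACGTG and 1 of CACGT. A match in these letters is a description and not a bound site, and nothing about binding was measured.

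Other genes of glucose and pyruvate metabolism were read from lists drawn up by function. Of 26 tested genes among 38 other glycolysis and pyruvate genes 3 were called higher, 2 lower and 21 neither. Of all genes tested 12.7% were called higher and 13% lower. The median log2 fold change of the 26 was 0.16. *Bsg*, the chaperone that brings the lactate transporters to the cell surface, was at 410 and 386 TPM in control and 971, 709 and 744 TPM in irradiated cells (log2 fold change 1.30 ± 0.19, adjusted p = 0.00870). *Mpc2*, a subunit of the mitochondrial pyruvate carrier, was at 24.3 and 27.2 TPM in control and 54.0, 55.4 and 48.8 TPM in irradiated cells (log2 fold change 1.12 ± 0.19, adjusted p = 0.00907). In both genes every irradiated library lay far above the controls, while *Mpc1*, the partner of *Mpc2*, was not called (log2 fold change 0.44, adjusted p = 0.136). *Slc16a7*, the high-affinity transporter MCT2, was at 19.8 and 18.0 TPM in control and 9.45, 5.78 and 12.5 TPM in irradiated cells (log2 fold change −1.29 ± 0.23, adjusted p = 0.00999), and *Pdp2*, the second phosphatase of the complex, had −0.97 (adjusted p = 0.0234). With the length offset *Slc16a7* was the one call left on this list.

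The lists of neighbouring pathways differ in size, and of all genes tested 12.7% were called higher and 13% lower. All 10 genes of the pentose phosphate pathway were tested and 2 were higher, *Taldo1* (log2 fold change 0.79) and *Prps1* (0.45). Of 16 genes of glycogen metabolism 2 were higher, the phosphoglucomutase *Pgm1* (0.73) and *Ugp2* (0.56), and 3 were lower, *Pgm2l1* (−1.18), *Phka1* (−0.57) and *Phka2* (−0.60). Of 4 tested gluconeogenesis genes *Slc37a4*, the glucose 6-phosphate translocase, was higher (0.87), and of 8 genes of the glycerol 3-phosphate and malate shuttles *Slc25a11*, the oxoglutarate carrier, was higher (0.61). Of 19 genes of the tricarboxylic acid cycle 8 were higher and none lower, led by *Sdhd* (1.06) and *Sdhc* (1.23), which anchor succinate dehydrogenase in the membrane, and *Suclg1* (0.71), a subunit of succinyl-CoA ligase. With the length offset 4.42% of all genes tested were called higher. In that fit 2 of these 8 remained called, *Sdhc* and *Sdhd*, and none of the calls in the other neighbouring lists remained. The summed TPM of the cycle was 2756 and 2842 in control and 2888 to 3060 in irradiated cells, with the groups apart.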

How the data were processed

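Bulk RNA sequencing of 5 KP1 libraries (2 control, 3 irradiated) was analysed, grouped by the treatment label. The study's single-cell samples were not used. Salmon, run by the authors with default settings on mm10, gave the deposited values per transcript: estimated counts of reads (expected counts, unscaled) and TPM, with lengths in bases. Per the submitters' processing notes the versions were Salmon 0.8.2 and DESeq2 1.22.2. The annotation release was not given in the sources used here.

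Transcripts were matched to GENCODE M21 (GRCm38; 99.8% of 113116 transcripts, carrying 99.9% of reads in each library), and reads and TPM were summed by gene symbol. Counts were rounded and tested with edgeR 4.0.16 in R 4.3.3 (filterByExpr, TMM, quasi-likelihood test, no block) with Benjamini-Hochberg adjustment over 14099 genes. The common dispersion was 0.0538. A call is an adjusted p under 0.05. An exact permutation test of 2 against 3 libraries cannot go below p = 0.1. Intervals cover the spread between libraries. The scripts were tested on simulated data.

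Alternatives were DESeq2 1.42.0, RLE normalization, no filter, offsets from a spline (5 degrees of freedom) over either the main transcript's length or its GC content, effective length offsets, reads of near-identical copies added (blastn 2.17.0, 95% identity over 80% of the length), the replicate block and each library left out. A spline offset takes out technical and biological trends alike. Added after the data were seen were a crossed block, protein-coding transcripts alone, shares of *Pkm* by reads, and limma 3.58.1 on log2(TPM + 1), with a pseudocount of 1. With 1 control left, edgeR takes the spread from the irradiated libraries and assumes the lone control varies alike.

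Named are all 32 genes and, from each other list, up to 3 genes a direction with the smallest adjusted p under 0.05. Beyond this rule *Mpc1*, *Eno1b* and the markers were picked with their values in view. From these lists 2 genes are not reported here by name. The genes and lists were chosen with earlier results of these data known.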

Additional observations from a re-analysis of the deposited data

How the results depend on the processing

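The count of genes called higher was 16 and stayed between 13 and 16 with DESeq2, RLE normalization, no filter, each offset alone, copies added or protein-coding transcripts alone. The share of all genes called higher differed between these settings, from 4.42% with the transcript length offset to 15.6% with DESeq2. The count was 7 by limma on log2(TPM + 1), against 4.98% of all genes. There the length scaling differs, no read model is used and TPM was not normalized further between libraries. The median log2 fold change of all genes on that scale was −0.24, and the part of this shift in the count was not tested. Leaving out each library gave 7 to 15 higher and 0 to 1 lower, with 7 without control replicate 2 and 10 without irradiated replicate 1. The 1 gene called lower, *Pfkfb2*, lost its call with the effective length offset (0 genes lower), with the replicate block and on leaving out any 1 library. The 1 gene called lower without control replicate 3 was *Hk2*. *Aldoc* was the 1 gene past both thresholds of the study in every setting with both controls. In these settings 0.39% (transcript length offset) to 2.28% (without irradiated replicate 3) of all genes were higher at these thresholds. The replicate numbers 2 and 3 occur in both groups, but the sources used here do not say that they mark a pairing, and they were not taken as one. The log2 ratio of replicate 2 to 3 correlated at −0.34 between the groups. That value cannot show separate handling, since read-weighted mean length ran in opposite order. Replicates 2 and 3 had 5463 and 4729 bases in control and 3625 and 3998 in irradiated cells. The part of length in the correlation was not tested. With the replicate block 6 genes were higher and 0 lower, against 4.18% and 3.43% of all genes, and 3 were higher when the length offset was added, against 1.94%. A block with crossed numbers gave 19 higher and 2 lower, against 21.6% and 19% of all genes.

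The median log2 fold change, 0.67, was 0.71 without the filter, 0.55 with the transcript length offset and 0.62 with the effective length offset. It was 0.51 with the GC offset, 0.53 with block and length offset together, and 0.58 to 0.77 with each library left out. By limma on log2(TPM + 1) it was 0.26, where the median of all genes tested was −0.24. The ratio of summed TPM, 1.52, was 1.95 from reads scaled by library size alone. Signs turned only among genes without a call. With the transcript length offset *Slc2a3* was at −0.32, *Hk1* at 0.14, *Pdk3* at −0.13 and *Pdha1* at −0.0026, and with the effective length offset *Slc2a3* was at −0.34 and *Dlat* at −0.17. *Slc2a3* was at −0.51 with the replicate block, −0.52 with the crossed block, −0.22 without control replicate 3 and −0.56 without irradiated replicate 1. With block and length offset together *Slc2a3* was at −0.94, *Hk1* at 0.13, *Hk2* at 0.029, *Pdk3* at −0.17 and *Pdha1* at −0.0051. *Hk1* ranged from −0.26 to 0.031 with 1 library left out, above 0 without control replicate 2, and *Pdha1* was at −0.088 without control replicate 3 and −0.0032 with protein-coding transcripts alone. By limma on log2(TPM + 1) *Slc2a3* was at −0.54, *Pfkp* at −0.034, *Pfkfb3* at −0.22, *Pdk3* at −0.13, *Pdha1* at −0.21, *Pdp1* at −0.025 and *Dlat* at −0.50. Where no cause follows from the setting itself, the cause was not tested. The widest intervals were those of *Pfkm*, *Slc2a3*, *Ldhb* and *Eno2*, and the part of depth in them was not tested.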
